A study of Mus musculus with 9 samples.

Results

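Gene expression was compared across the whole transcriptome between control mouse livers and livers injured with D-gal/LPS, with every tested gene described by its family, biotype, level and place in the genome. The comparison used the 6 libraries that GEO's labels place in these groups, 3 of control liver and 3 of D-gal/LPS liver, out of 9 libraries in the series. Of 34745 genes in the deposited table, 13583 passed the filter on low counts and were tested, and these held 99.93% of all counts. Both groups were male C57BL/6 mice aged 6 to 8 weeks, and the labels name no allele, no transgene and no pretreatment in either. D-gal is the common short form of D-galactosamine, an amino sugar, and LPS that of lipopolysaccharide from bacterial walls. The sources used here do not state doses, the time from injection to sampling, or what control mice received. Whether replicates were separate animals is not labelled, so a p-value speaks only of the spread among these libraries, which may be technical. The other 3 libraries, from mice pretreated with WZB before D-gal/LPS, entered the filter, the scaling and the estimate of that spread, but not the contrast itself.

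In this model, galactosamine is taken up by hepatocytes and ties up their uridine nucleotides, which lowers RNA synthesis there. Lipopolysaccharide is sensed by Toll-like receptor 4 on Kupffer cells and other macrophages, which release tumour necrosis factor and further cytokines, and hepatocytes with blocked RNA synthesis die in response. A healthy liver spends much of its messenger RNA on plasma proteins such as albumin, serpins, complement and clotting factors, and on enzymes of intermediary metabolism. Genes of the immune system, the matrix and the vessel wall come mostly from the other cells of the organ. In bulk liver, fewer cells of a type and less RNA per cell cannot be told apart, and this holds for every value given here.

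The 6 libraries held 15072509 to 18106895 counts each. A count was found for 15486 to 16221 genes in control libraries and for 16510 to 16793 in D-gal/LPS libraries. Log-scale correlations between libraries were 0.970 to 0.981 within a group and 0.815 to 0.827 across groups, and the first principal component carried 84.4% of the variance. No library stood apart from its group. Levels are in CPM, the counts of a gene scaled to a common library size with TMM factors. The hepatocyte markers were present in every library, with summed levels of 94941 to 96737 CPM in control liver and 110896 to 113815 CPM after D-gal/LPS, mostly albumin. Of these 12 markers, 2 rose and 4 fell. G6pc, the last enzyme of glucose release, was at 273, 196 and 232 CPM in the control libraries and 36.1, 42.6 and 33.8 CPM in the D-gal/LPS libraries. Of 8 acinar and intestinal markers, Prss1, Cpa1, Pnlip, Try4 and Lct were at 0 in all 6 libraries, and of the other 3, 2 rose and 1 fell. Their summed level was 56.8 to 75.1 CPM in control libraries and 46.8 to 62.3 CPM after D-gal/LPS.

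Markers of cells other than hepatocytes moved with the groups, and their part in the gene results below was not tested. Markers close to silence in control liver could pass the filter only through the D-gal/LPS libraries or the third group. For these a rise was fixed by the filter, so the counts of rises in such lists are no separate evidence. Summed neutrophil markers went from 5.60 to 6.21 CPM in control libraries to 357 to 386 CPM in D-gal/LPS libraries, and 11 of 11 tested markers rose. Monocyte and macrophage markers went from 51.4 to 59.9 CPM to 427 to 439 CPM, with 13 of 13 tested identifiers higher (Itgam is listed under 2). Kupffer cell markers went from 133 to 140 CPM to 490 to 542 CPM, with 9 of 10 higher. All of these ranges were separate between the groups. Summed markers of stellate cells and fibroblasts were 136 to 146 CPM in control and 1235 to 1322 CPM after D-gal/LPS, with 11 of 12 higher. Those of sinusoidal endothelium were 137 to 163 CPM and 657 to 689 CPM, with 10 of 12 higher and 1 lower. Platelet markers were 2.40 to 7.30 CPM and 28.4 to 41.2 CPM, and 6 of 6 tested rose. The red cell markers were at 110 to 140 CPM in control libraries and 3586 to 4475 CPM after D-gal/LPS, the largest sums among these lists after injury, and 7 of 7 tested rose. Lymphocyte markers were at 4.73 to 6.70 CPM and 51.4 to 60.1 CPM, with 7 of 11 tested higher. Cholangiocyte markers were at 98.3 to 118 CPM and 175 to 247 CPM, with 6 of 8 higher and 1 lower. Mesothelial markers stayed low, at 4.28 to 7.63 CPM and 10.7 to 14.6 CPM, with 2 of 5 higher.

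D-gal/LPS injury was accompanied by change in most expressed genes. Of the 13583 tested genes, 7931 (58.4%) passed edgeR's quasi-likelihood test at a Benjamini-Hochberg adjusted p of 0.05, of which 3957 (29.1%) rose and 3974 (29.3%) fell. The levels of the 3 control libraries and the 3 D-gal/LPS libraries did not overlap in 8900 genes (65.5%). These shares are the background against which each family is read, together with the median log2 fold change over all tested genes of -0.03. The near balance of rises and falls ended when size was counted. A change of at least 2-fold was called upward in 2454 genes (18.1%) and downward in 1731 (12.7%). At 4-fold or more there were 1506 rises against 391 falls, at 16-fold 457 against 27, and at 256-fold 33 against 0.

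**Figure D1:**
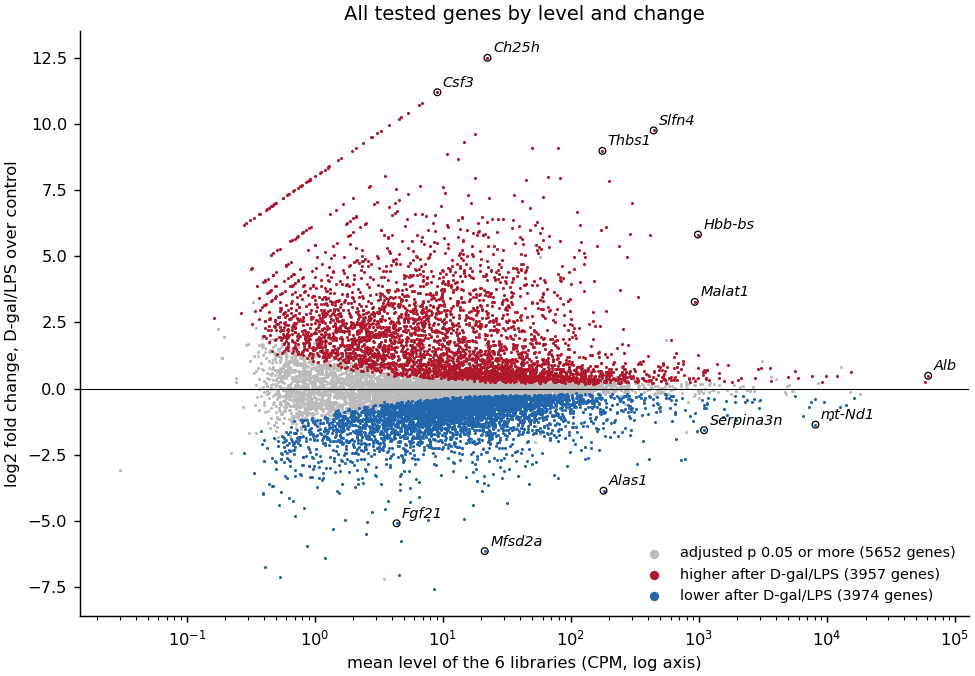
Each point is 1 of 13583 tested genes, placed by its mean level over the 6 libraries (CPM, log axis) and its log2 fold change (D-gal/LPS over control). Red genes rose and blue genes fell past the adjusted p of 0.05. Rises reach far higher than falls at levels below 1000 CPM, while genes above 1000 CPM stay within small changes. The straight diagonals of points are genes with no or few control counts, whose fitted fold depends on the prior count.

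The largest rises were in genes close to silence in control liver. Ch25h, which makes 25-hydroxycholesterol in macrophages, had no count in any control library and 741, 676 and 787 counts in the D-gal/LPS libraries. With 3 counts placed over the whole control group as a floor, this was at least 773-fold higher. Csf3, Fgf23, Tnip3, Lif, Gpr84 and Slamf1 also had no control count, and were at least 314-fold, 236-fold, 227-fold, 184-fold, 156-fold and 132-fold higher. These genes passed the filter only through the D-gal/LPS libraries or the third group, so that their direction was fixed by the filter, and only the size is informative. The same holds for genes named here with under 1 CPM in the control libraries, among them Adamts4, Thbs1, Egr2, Cxcr2 and Inhbb, for which sizes are given without a p-value. It also holds for family members at such levels, so that counts of rises in families of low control level are in part fixed by the filter. Lif, a cytokine of the interleukin 6 family, had 193, 137 and 198 counts after D-gal/LPS. Gpr84, a receptor for medium-chain fatty acids on myeloid cells, had 132, 147 and 165 counts. The carbonic anhydrase gene Car4 and Osm, the oncostatin M gene, were further genes without a control count, with levels after D-gal/LPS of 5.95, 6.99 and 6.79 CPM and 6.30, 5.47 and 6.73 CPM.

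Adamts4, a protease that cuts aggrecan, was at 0.123, 0 and 0 CPM in control libraries and 36.97, 35.98 and 34.7 CPM in D-gal/LPS libraries. The groups were far apart and the injured libraries close together. The fitted log2 fold change of 9.60 rests on very few control counts and depends on the prior count, so no standard error is given. Thbs1, the thrombospondin 1 gene, was at 0.738, 0.543 and 0.782 CPM and then at 372, 330 and 352 CPM. Its log2 rise of 8.98 ± 0.21 (SE) was one of large size for a gene this abundant after injury. Akap12, a scaffold for protein kinase A, was at 1.78, 1.09 and 2.29 CPM against 416, 357 and 419 CPM, a log2 rise of 7.83 ± 0.40. Pcdhga1, a protocadherin of a cluster whose members share exons, is a rise of another kind. It had no control count and 51, 24 and 401 counts after D-gal/LPS, so a single library held most of it. Its adjusted p of 0.0451 no longer passed in 8 of the alternative settings, among them without control replicate 1, 2 or 3 and without D-gal/LPS replicate 1.

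The largest falls came from genes of modest level. Mfsd2a, a transporter of lysophosphatidylcholine that carries docosahexaenoic acid, was at 58.6, 23.1 and 43.9 CPM in control libraries and 1.16, 0.461 and 0.118 CPM after D-gal/LPS. It fell by 6.14 ± 0.65 on the log2 scale, with no overlap in spite of the spread within both groups. Acot3, a peroxisomal acyl-CoA thioesterase, was at 11.87, 4.645 and 11 CPM and then at 0.116, 0.395 and 0 CPM. Fgf21, the hepatokine of fasting, was at 8.24, 8.51 and 8.65 CPM and then at 0.520, 0 and 0.177 CPM. The control libraries of Fgf21 were nearly equal, and its log2 fold change was -5.09 ± 0.55. Mfsd2a, Acot3, Fgf21 and other genes close to silence after D-gal/LPS passed the filter only through the control libraries or the third group. Their direction was thus fixed by the filter, only the size is informative, and sizes are given without a p-value. Bbs10, a chaperonin-like gene of the primary cilium, went from 4.67, 5.67 and 5.73 CPM to 0.173, 0.461 and 0 CPM. Cux2, a homeobox factor, was at 8.12, 6.15 and 5.99 CPM against 0.116, 0.264 and 0.472 CPM. Extl1 of the exostosin glycosyltransferases, Dact2, a regulator of Wnt signalling, and the Polycomb gene Cbx2 had log2 fold changes of -4.241, -4.098 and -3.84. Hdhd3, Usp2, Inhbe and Alas1 completed the 12, with log2 changes of -4.98, -4.92, -4.33 and -3.86.

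**Figure D2:**
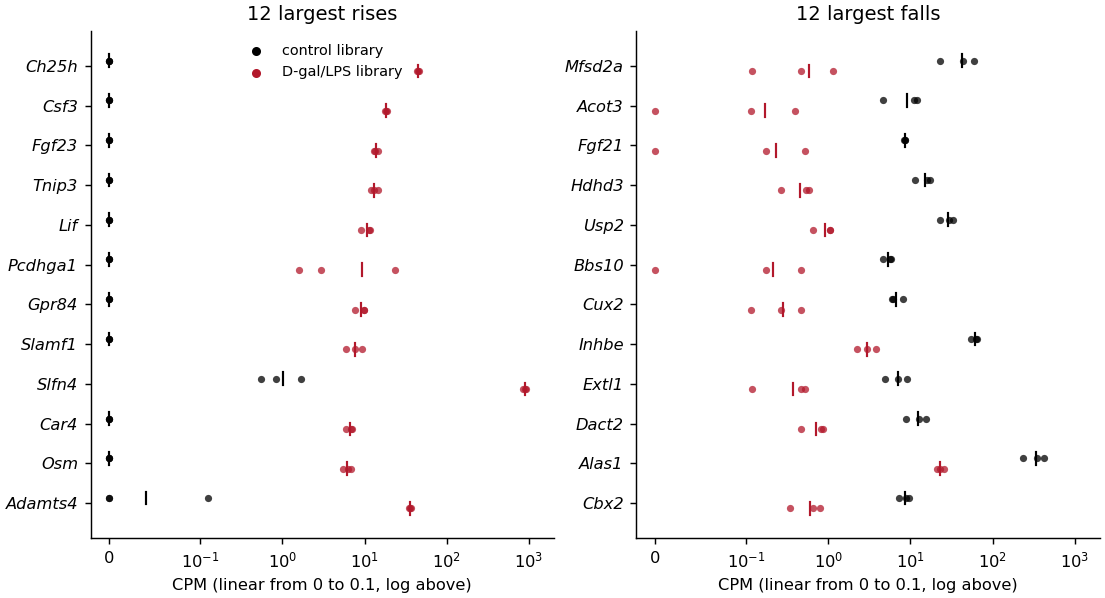
Levels (CPM, linear from 0 to 0.1 and log above) of the 12 largest rises and 12 largest falls that met the naming rule, 1 point per library and a bar at each group mean. Control (black) and D-gal/LPS (red) libraries do not overlap in any of the 24 genes, and Pcdhga1 has the widest spread among the injured libraries.

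Promoters are printed for Egr2 and Ier3, which rose, and for Fgf21 and Hdhd3, which fell. They were picked because their windows hold the GC box, and do not represent the promoters of rising or falling genes. Egr2, an immediate early zinc finger factor of the Egr group, was at 0, 0 and 0.156 CPM in control libraries and 25.4, 23.7 and 29.6 CPM after D-gal/LPS. Its fitted log2 rise of 8.65 rests on very few control counts. Ier3, an early gene of stress and inflammation, was at 1.54, 0.241 and 0.625 CPM and then at 122, 117 and 119 CPM. The sequences below run from 250 bases before to 50 after each gene's annotated start, 5′ to 3′ on the gene's own strand, and are from RefSeq on GRCm38.p6. Capitals mark the GC box, GGGCGG or its reverse complement CCGCCC, the letters bound by Sp and Klf factors. Among the motifs searched, its share differed most from that over all genes of the promoter table. The genes are those with the largest changes in each direction among the named genes whose window holds it. Egr2 lies at chr10:67535249-67535548 on the plus strand and holds 4 matches. Ier3 lies at chr17:35821463-35821762 on the plus strand with 1 match. Fgf21 lies at chr7:45615441-45615740 on the minus strand with 3 matches, and Hdhd3 at chr4:62502151-62502450 on the minus strand with 1.
Egr2: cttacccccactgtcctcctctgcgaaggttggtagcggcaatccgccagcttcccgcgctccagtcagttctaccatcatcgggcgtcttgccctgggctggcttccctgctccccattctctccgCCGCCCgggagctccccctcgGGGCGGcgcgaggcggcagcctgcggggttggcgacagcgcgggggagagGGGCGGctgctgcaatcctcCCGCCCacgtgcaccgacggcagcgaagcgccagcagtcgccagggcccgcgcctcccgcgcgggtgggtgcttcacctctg
Ier3: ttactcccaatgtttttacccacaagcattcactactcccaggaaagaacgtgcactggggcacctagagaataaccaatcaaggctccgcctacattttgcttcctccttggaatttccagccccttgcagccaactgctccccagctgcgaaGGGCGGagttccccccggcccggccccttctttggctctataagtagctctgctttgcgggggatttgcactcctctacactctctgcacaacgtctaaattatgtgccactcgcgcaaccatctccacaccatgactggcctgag
Fgf21: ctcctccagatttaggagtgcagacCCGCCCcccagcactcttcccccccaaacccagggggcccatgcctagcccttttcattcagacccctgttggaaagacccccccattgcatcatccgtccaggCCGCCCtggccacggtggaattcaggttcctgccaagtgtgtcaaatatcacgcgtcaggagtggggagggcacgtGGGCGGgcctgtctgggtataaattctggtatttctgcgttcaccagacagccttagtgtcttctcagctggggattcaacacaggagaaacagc
Hdhd3: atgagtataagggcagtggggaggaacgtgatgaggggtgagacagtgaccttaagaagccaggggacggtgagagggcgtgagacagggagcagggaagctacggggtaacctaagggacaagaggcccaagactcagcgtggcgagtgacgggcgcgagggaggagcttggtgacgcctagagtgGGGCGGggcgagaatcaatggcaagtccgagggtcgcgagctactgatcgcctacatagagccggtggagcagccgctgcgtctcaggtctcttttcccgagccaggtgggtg

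GC boxes were found on both sides of the comparison. Shares of motifs are shares of genes, and a gene with several promoters was counted if any of them held the motif. The GC box stood in 66.21% of the tested genes that could be matched (10045 of 13565 with a unique symbol). Over all 27025 genes of the promoter table it stood in 38.2%. It stood in 58.28% of genes at least 2-fold higher, 63.2% of genes at least 2-fold lower and 67.41% of genes that did not pass the test. Among genes at least 16-fold higher the share was 36%. Their promoters were also poorer in CpG pairs, with a median of 6 in 300 bases against 21 over all tested genes, and in G and C, with a median of 52.7% against 60.3%. For genes with several promoters, the highest CpG count and the mean share of G and C were taken.

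Other motifs had higher shares among the strong rises. The AP-1 site TGANTCA, read by Fos and Jun factors, stood in 6.77% of tested genes, 11.28% of those at least 2-fold higher, 6.48% of those at least 2-fold lower and 16% of those at least 16-fold higher. The interferon response core GAAANNGAA stood in 9.04%, 13.89%, 7.28% and 20% of the same groups. The Rel family core GGGANTTTC was rare, at 1.18%, 2.15%, 1.04% and 4.62%. The TATA box TATAAA, which differs in composition from the GC box, stood in 9.45%, 14.29%, 9.36% and 19.08%. Over all genes of the promoter table these motifs stood in 8.97%, 9.76%, 1.29% and 15.67%, in the order given. The E-box CACGTG, at 8.09% of all genes of the promoter table, went the other way. It stood in 11.53% of tested genes, 9.35% of those at least 2-fold higher and 6.46% of those at least 16-fold higher. Motifs were searched on both strands and may overlap, and a match describes letters in a window and not a bound site.

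Plasma protein genes were among those whose RNA moved by the largest amounts. Genes that rose gained 166619 CPM together, the genes that fell dropped by 133957 CPM, and the 10 largest gains and 10 largest losses held 32.9% and 35.1% of these sums. Alb, the albumin gene, was at 51481, 52204 and 50906 CPM in control libraries and 74556, 70727 and 70456 CPM after D-gal/LPS. All injured libraries stood above all control libraries, with a log2 rise of 0.48 ± 0.07 (edgeR adjusted p = 5.93e-05). Levels here are relative to the library, so a rise can be a larger share of a smaller total.

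Serpins, the family of alpha-1 antitrypsin and other protease inhibitors, rose in 23 and fell in 6 of 34 tested members, with a median log2 fold change of 0.63. Their summed level was 41259 ± 320 CPM in control and 56700 ± 1523 CPM after D-gal/LPS (SD, n = 3 each). Members of the same gene cluster on chromosome 12 moved in opposite directions. Serpina1e was at 12282, 12079 and 12300 CPM and then at 19700, 18441 and 18106 CPM. Serpina3n, an acute phase member, was at 1684, 1663 and 1583 CPM and then at 588, 534 and 534 CPM, a log2 fold change of -1.57 ± 0.08 (edgeR adjusted p = 9.71e-10). Its neighbour Serpina3f was at 2.28, 1.99 and 2.19 CPM against 233, 207 and 227 CPM, a log2 rise of 6.69 ± 0.12 (edgeR adjusted p = 3.81e-13). These genes are close copies, and the handling of reads shared between copies is not stated.

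Genes of clotting and other plasma proteins moved both ways. Fgb and Fga, fibrinogen chains, fell by 0.50 and 0.38 on the log2 scale. Hp, the haptoglobin gene, was at 8463, 9079 and 8770 CPM in control libraries and 5248, 3348 and 4177 CPM after D-gal/LPS, a log2 fold change of -1.04 ± 0.17. Among 18 coagulation factors 10 rose and 4 fell, with a median log2 fold change of 0.36, while their summed level went from 28564 ± 1622 CPM to 24880 ± 1061 CPM. The falls numbered 2 without D-gal/LPS replicate 1 and 2 without control replicate 3. F13a1, a clotting factor subunit made by macrophages and platelets, was at 0.246, 0.664 and 0.261 CPM against 12.7, 10.5 and 10.7 CPM. Of 32 complement genes 22 rose and 5 fell, with a median of 0.46. C3, the central component, rose from 6452 ± 178 to 8842 ± 572 CPM and C5ar1, a receptor on myeloid cells, from 0.869 ± 0.092 to 26.6 ± 1.498 CPM (SD, n = 3 each). Apolipoproteins did not move together, with 5 higher and 9 lower of 22. Apom, which carries sphingosine 1-phosphate, was at 108, 107 and 107 CPM and then at 250, 265 and 279 CPM. Apoa5, an activator of triglyceride clearance, was at 1055, 1029 and 1052 CPM and then at 302, 259 and 270 CPM. The major urinary proteins, pheromone carriers of near-identical sequence that cannot be separated with certainty, rose in 8 and fell in 3 of 27. The rises numbered 5 without D-gal/LPS replicate 3, 5 without control replicate 1, and 16 with only the 6 libraries.

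Haemoglobin transcripts joined the largest gains. Hbb-bs, an adult beta globin of red cells, was at 26.1, 35.4 and 41.3 CPM in control libraries and 2401, 1977 and 1414 CPM after D-gal/LPS. The injured libraries differed among themselves but lay far above control, with a log2 rise of 5.82 ± 0.57 (edgeR adjusted p = 0.000164). Hba-a2 and Hbb-bt were at 6.95, 10.6 and 11.9 CPM and 3.997, 5.912 and 5.994 CPM in control libraries. After D-gal/LPS they were at 583, 460 and 650 CPM and 387, 289 and 427 CPM. The globins moved with the red cell markers above, of which they are members. Globin genes come in near-identical pairs, and each value may hold reads of its copy.

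Genes of the mitochondrial genome supplied 7 of the 10 largest losses. Of 13 tested mitochondrially encoded subunits of the respiratory chain and ATP synthase, 10 fell and 1 rose, with a median log2 fold change of -0.61. Their summed level went from 177911 ± 18741 CPM to 146413 ± 5338 CPM. Mitochondrial transcripts made up 19.1 ± 1.64% of the counts of control libraries and 15.1 ± 0.41% after D-gal/LPS. The falls were uneven along a genome that is transcribed as long precursors. mt-Nd1 was at 11890, 10806 and 12475 CPM and then at 4665, 4344 and 4633 CPM, a log2 fold change of -1.37 ± 0.08 (edgeR adjusted p = 9.11e-09). mt-Nd3 was at 745, 729 and 635 CPM and then at 98.0, 114 and 117 CPM, a log2 fold change of -2.68 ± 0.14. mt-Nd4 fell by 0.35 on the log2 scale. mt-Co1, a subunit of cytochrome oxidase, was at 54073, 46061 and 57572 CPM and then at 60553, 64573 and 64019 CPM. Its rise of 0.26 ± 0.09 (edgeR adjusted p = 0.0234) was not called under upper quartile factors, without control replicate 2, or without D-gal/LPS replicate 3. mt-Nd6 lies on the opposite strand to mt-Nd5, and without known strandedness its reads are uncertain.

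Nuclear genes of the same organelle differed by their role. Of 80 nuclear subunits of the respiratory chain 11 rose and 13 fell, both below background, with a median of -0.11, and under DESeq2 size factors the balance of calls turned to 12 rises and 9 falls while the median stayed negative. Atp5b, the catalytic subunit of ATP synthase, was at 505, 444 and 508 CPM and then at 802, 942 and 831 CPM, a log2 rise of 0.82 ± 0.09. Sdha of succinate dehydrogenase rose by 0.75 ± 0.08, while the subunits Cox7c and Ndufa8 had log2 fold changes of -1.05 and -0.62. The proteins that build the chain leaned more clearly to falls. Of 42 assembly factors 1 rose and 16 fell, with a median of -0.26, and Sdhaf1, which helps place iron and sulphur in succinate dehydrogenase, was at 11.2, 15.7 and 12.1 CPM and then at 2.31, 2.57 and 3.54 CPM. Of 77 mitochondrial ribosomal proteins 2 rose and 29 fell, with a median of -0.28 and a summed level of 1760 ± 54.5 against 1440 ± 83.8 CPM. Mitochondrial protein import genes fell in 11 and rose in 2 of 28.

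Cytosolic ribosomal proteins moved against their mitochondrial counterparts. Of 84 tested, 31 rose and 5 fell, with a median log2 fold change of 0.19, and their summed level went from 5712 ± 257 to 7586 ± 355 CPM. Rps7 was at 45.3, 41.0 and 38.7 CPM in control libraries and 80.6, 91.7 and 92.8 CPM after D-gal/LPS, a log2 rise of 1.09 ± 0.09 (edgeR adjusted p = 3.63e-07). Many ribosomal genes have processed copies elsewhere in the genome, and their counts are uncertain. The median of the translation initiation and elongation factors was -0.01, with a positive sign under DESeq2 size factors, and 16 rose and 18 fell of 60. Aminoacyl-tRNA synthetases, which load amino acids onto tRNA, fell in 18 and rose in 4 of 37, with a median of -0.31. Wars, the tryptophan enzyme that interferon induces, was at 11.13, 15.87 and 12.98 CPM and then at 40.5, 32.8 and 33.5 CPM. Cars, the cysteine enzyme, was at 39.0, 44.9 and 45.7 CPM and then at 17.4, 16.7 and 13.5 CPM.

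The machinery that makes and matures RNA was lower across several families. Of 27 RNA polymerase subunits 13 fell and 1 rose, with a median log2 fold change of -0.40. Of 53 Mediator and TFIID subunits, which link transcription factors to RNA polymerase II, 24 fell and 6 rose, with a median of -0.43. Integrator, exosome and CCR4-NOT genes, which cut, trim and deadenylate RNA, fell in 21 and rose in 4 of 38, with a median of -0.46. The antiproliferative genes Btg1 and Btg2 were among the 4 that rose, and Btg2, which recruits CCR4-NOT, was at 12.1, 10.5 and 11.8 CPM and then at 70.5, 68.1 and 70.0 CPM. Polr3f, of RNA polymerase III, was at 13.8, 12.5 and 12.0 CPM and then at 4.28, 5.67 and 4.43 CPM. Splicing proteins fell in 27 and rose in 9 of 68, DEAD and DEAH box helicases fell in 23 and rose in 9 of 50, and nucleolar ribosome assembly proteins fell in 24 and rose in 6 of 57. The medians of these families were -0.17, -0.17 and -0.27, so that the typical member moved little.

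Zinc finger genes were the largest family with a marked fall. Of 301 tested Zfp genes, 170 (56.5%) fell and 17 rose, with a median log2 fold change of -0.80 that stayed negative under every scaling tried. Their summed level was 2566 ± 51.7 CPM in control and 1720 ± 47.9 CPM after D-gal/LPS. Most of these proteins bind DNA and many with a KRAB domain silence transposable elements. Zfp825 was at 22.6, 20.1 and 20.5 CPM in control libraries and 4.16, 2.37 and 2.54 CPM after D-gal/LPS, a log2 fold change of -2.79 ± 0.24 (edgeR adjusted p = 3.12e-07). Zfp707 was at 42.5, 48.3 and 24.4 CPM against 1.44, 3.95 and 4.25 CPM. The groups were separate in both genes. Zfp697 was an exception, at 2.03, 0.965 and 1.82 CPM against 7.57, 7.18 and 7.44 CPM. The lean was also present within classes of level. At 1 to 10 CPM 124 of 203 Zfp genes fell and 9 rose, against 1274 and 1458 of 4671 other protein-coding genes. At 10 to 1000 CPM 35 of 66 fell and 4 rose, against 2206 and 2008 of 6900.

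Other transcription factor families differed from this and from each other. Nuclear receptors, which sense hormones, bile acids and lipids, fell in 22 and rose in 4 of 38, with a median log2 fold change of -0.78. Nr1h5, the second farnesoid X receptor gene of the mouse, was at 4.67, 5.61 and 5.84 CPM and then at 0.693, 0.593 and 0.354 CPM. The early response members Nr4a1 and Nr4a3 rose, and Nr4a1 was at 1.35, 1.33 and 1.72 CPM and then at 74.9, 76.3 and 84.1 CPM, a log2 rise of 5.73 ± 0.14 (edgeR adjusted p = 4.63e-12). The 46 bZIP factors held rises and falls of great size, 19 and 14 in number. Fosl1, of the Fos group, had no control count and 91, 91 and 92 counts after D-gal/LPS, at least 96.4-fold higher. Cebpa, which maintains liver genes, was at 156, 176 and 165 CPM and then at 23.7, 17.0 and 24.8 CPM, a log2 fold change of -2.92 ± 0.14 (edgeR adjusted p = 1.2e-09). Dbp, a clock output factor, was at 128, 134 and 141 CPM against 14.8, 12.5 and 14.8 CPM.

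Further factors active in liver were Foxa3, Tbx3 and Hnf4a, all lower after D-gal/LPS. Foxa3, a forkhead factor that opens liver chromatin, was at 54.4, 41.9 and 52.4 CPM and then at 9.65, 6.19 and 6.85 CPM. Tbx3, a T-box factor, was at 34.3, 35.7 and 31.6 CPM and then at 3.76, 2.90 and 2.24 CPM. Hnf4a, a nuclear receptor and central regulator of hepatocytes, fell far less, from 545, 503 and 515 CPM to 417, 433 and 410 CPM. All of these groups were separate. ETS factors rose in 14 and fell in 1 of 20, with a median of 1.13, led by Spic and Spi1, factors of macrophages. Spic was at 3.57, 3.14 and 2.71 CPM and then at 83.9, 76.6 and 81.8 CPM. Irf, Stat, Rel and Nfat factors rose in 11 and fell in 3 of 24.

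**Figure D3:**
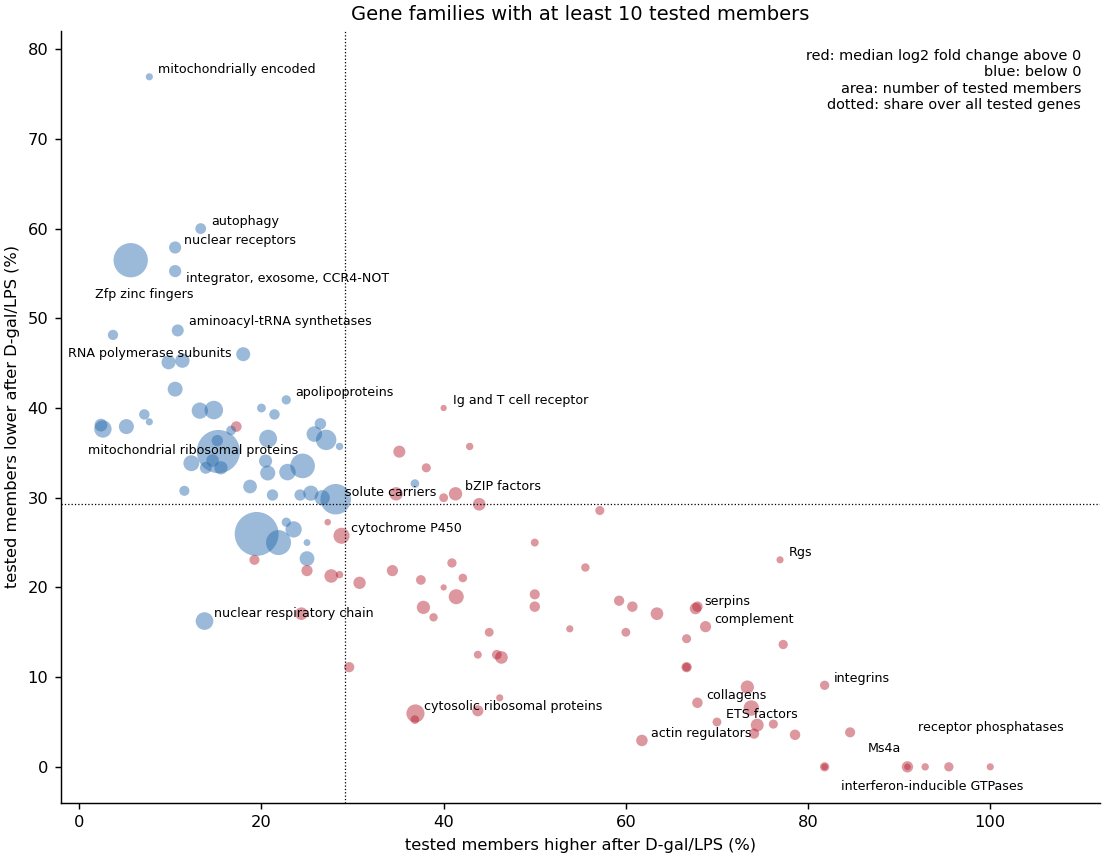
Each circle is 1 of 122 gene families with at least 10 tested members, placed by the share of its members that rose (horizontal axis, %) and fell (vertical axis, %). Circle area follows the number of tested members, colour gives the sign of the median log2 fold change, and dotted lines mark the 29.1% and 29.3% of all tested genes. Most immune and matrix families lie at lower right, and zinc fingers, nuclear receptors, RNA machinery and mitochondrially encoded genes at upper left.

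In all, 122 of 135 families had at least 10 tested members, and their median log2 fold change was above 0 in 70 and below 0 in 52. The sign of the median turned under another library scaling in 7 of them, and in 2 others the balance of rises and falls turned. At least 80% of the tested members changed in 23 families. Together the families held 5866 tested genes (43.2%).

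Chemokines and their receptors rose almost throughout. Of 26 tested chemokines, which attract leukocytes, 22 rose and 1 fell, with a median log2 fold change of 3.77 and a summed level of 547 ± 29.0 CPM in control and 2156 ± 6.62 CPM after D-gal/LPS. Ccl2, which draws monocytes, was at 0.676, 0.603 and 0.678 CPM and then at 153, 171 and 168 CPM. Cxcl12, a chemokine of steady state that stromal and endothelial cells make, was the member that fell, from 339, 395 and 348 CPM to 208, 214 and 171 CPM. Of 14 chemokine receptors 13 rose and 0 fell, with a median of 2.64. The summed control level of these receptors was 8.09 CPM, and for members close to silence there the rise was fixed by the filter. Cxcr2, the neutrophil receptor, was at 0.307, 0.302 and 0.156 CPM and then at 30.7, 35.6 and 32.0 CPM, a log2 rise of 6.99 ± 0.24. These rises moved with the neutrophil and monocyte markers given above.

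Cytokines and their receptors held a few opposed members. Interleukins and their receptors rose in 33 and fell in 4 of 45, with a median log2 fold change of 2.17. Il1r2, a decoy receptor for interleukin 1, was at 0.123, 0.241 and 0.0521 CPM and then at 38.2, 34.6 and 33.0 CPM. Il1r1, the signalling receptor, was at 136, 115 and 124 CPM and then at 60.6, 47.8 and 55.5 CPM. On the length-adjusted FPKM scale Il1r1 averaged 13.7 and Il1r2 0.0642 in control liver, and 5.76 and 15.5 after D-gal/LPS, so that their order was inverted. TNF superfamily ligands and receptors rose in 20 and fell in 1 of 27. Tnf was at 0.369, 0.724 and 0.156 CPM and then at 23.5, 30.3 and 26.9 CPM. In the TGF-beta superfamily 16 of 27 rose and 5 fell, and the activin chains diverged. Inhbb was at 0.615, 0.362 and 0.782 CPM against 86.3, 75.7 and 84.5 CPM, a log2 rise of 7.09 ± 0.23. The liver chains Inhbe and Inhbc fell by 4.33 and 1.04 on the log2 scale.

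Pattern receptors and surface molecules of leukocytes followed the same direction. Toll-like and NOD-like receptors rose in 17 and fell in 3 of 22, with a median log2 fold change of 2.37. Nlrp3, an inflammasome sensor, was at 0.492, 1.09 and 0.782 CPM and then at 21.6, 29.2 and 18.2 CPM. Tlr5, the flagellin receptor, fell from 4.80, 5.85 and 5.11 CPM to 1.79, 1.78 and 1.24 CPM. C-type lectins rose in 22 and fell in 1 of 28, and Siglec, Lilr, Pir and Fc receptors rose in 18 and fell in 0 of 22. Ms4a genes, of the CD20 family, rose in 10 and fell in 0 of 11, with a median of 4.22. Their summed control level was 9.17 CPM, and the same limit of the filter holds for them. CD antigens rose in 45 and fell in 4 of 61. Cd274, the checkpoint ligand PD-L1, was at 2.64, 2.47 and 2.24 CPM against 115, 125 and 116 CPM, a log2 rise of 5.60 ± 0.13 (edgeR adjusted p = 1.75e-12).

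Interferon families were among the most uniform. Of 33 Ifi, Ifit, Ifitm, Oas and Isg genes 30 rose and 0 fell, with a median log2 fold change of 3.54, and of 22 interferon-inducible GTPases 21 rose and 0 fell, with a median of 2.34. Gbp2, a GTPase that acts on vacuoles holding microbes, was at 13.4, 8.20 and 11.3 CPM in control libraries and 461, 437 and 484 CPM after D-gal/LPS, a log2 rise of 5.39 ± 0.16 (edgeR adjusted p = 1.26e-10). Rsad2, the antiviral enzyme viperin, was at 6.21, 5.19 and 4.38 CPM and then at 319, 346 and 341 CPM. All 7 tested Schlafen genes, regulators of immune cell growth, rose, with a median of 5.55 and a summed level of 10.3 ± 1.92 against 1161 ± 25.5 CPM. Slfn4 made up most of that sum. MHC genes rose in 16 and fell in 1 of 21 with a smaller median of 0.97, and their copies, like those of the Gbp and Ifi genes, are close enough to share reads.

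Immunoglobulin and T cell receptor segments were the immune group without a common direction. Of 10 tested segments 4 rose and 4 fell. Igha, the constant region of IgA, was at 14.6, 5.85 and 11.8 CPM and then at 4.56, 3.89 and 4.54 CPM. Igkc, the kappa light chain, was at 16.4, 13.9 and 20.5 CPM and then at 8.67, 8.24 and 7.08 CPM. Ighm, the IgM constant region, was at 6.52, 6.58 and 7.45 CPM and then at 14.7, 13.3 and 14.8 CPM, with an edgeR adjusted p of 0.000111. The injured libraries lay below control for Igha and Igkc and above it for Ighm.

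Most matrix and adhesion families rose in injured liver. Claudins and gap junction proteins were mixed, with 8 rises and 4 falls of 19 and summed levels of 928 CPM in control and 702 CPM after D-gal/LPS. Keratins rose in 3 and fell in 1 of 5, while their summed level went from 602 to 406 CPM. Adam, Adamts and Mmp proteases with Timp inhibitors rose in 32 and fell in 2 of 43, with a median log2 fold change of 1.80. Mmp8, the neutrophil collagenase, was at 0.123, 0 and 0 CPM and then at 25.9, 34.3 and 27.1 CPM. Collagens rose in 19 and fell in 2 of 28, with a median of 1.71. Col3a1, of fibrillar collagen, was at 16.7, 15.4 and 18.7 CPM and then at 203, 155 and 178 CPM, a log2 rise of 3.40 ± 0.12 (edgeR adjusted p = 4.15e-11). Col15a1, of vessel basement membranes, was at 13.5, 17.5 and 15.4 CPM and then at 6.41, 5.14 and 4.43 CPM. Of 11 laminins 9 rose and 0 fell, and of 22 integrins 18 rose and 2 fell. Cdh5, the cadherin of endothelial junctions, was at 6.58, 8.08 and 7.04 CPM and then at 126.1, 106.5 and 122.6 CPM. The rising families moved with the stellate and endothelial markers above.

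Signalling and cytoskeletal families differed in how far they lay from the background of 29.1% rises and 29.3% falls. Protein phosphatase subunits rose in 16 (22.9%) and fell in 23 (32.9%) of 70. Cyclins and their kinases rose in 9 (20.5%) and fell in 15 (34.1%) of 44. SOCS, CISH and PIAS proteins, which damp cytokine signals, rose in 3 (25%) and fell in 3 (25%) of 12. These shares were near background, and no direction is read from them. RAS-like GTPases and their regulators rose in 19 (46.3%) and fell in 5 (12.2%) of 41. All 13 tested receptor-type tyrosine phosphatases rose, with a median log2 fold change of 0.80. Ptprc, the leukocyte antigen CD45, was at 5.66, 7.18 and 7.45 CPM and then at 62.4, 65.1 and 59.0 CPM. Regulators of G protein signalling rose in 10 and fell in 3 of 13, so that every tested member changed. Rgs5, of pericytes, was at 9.347, 10.01 and 8.756 CPM against 157, 148 and 165 CPM. Rgs16, a liver gene of fasting and the clock, was at 42.74, 35.05 and 39.35 CPM against 12.5, 11.6 and 12.0 CPM. Actins and actin regulators rose in 21 and fell in 1 of 34, with a median of 0.79 and a summed level of 1475 ± 98.0 against 3381 ± 192 CPM. Among gap junction genes, Gja1, connexin 43, was at 2.89, 0.784 and 0.938 CPM and then at 62.6, 55.5 and 54.5 CPM. Gjb2, connexin 26 of hepatocytes, was at 400, 333 and 347 CPM and then at 104, 107 and 98.3 CPM. In FPKM Gja1 averaged 0.529 and 19.1 and Gjb2 161 and 44.2, so Gjb2 remained the higher of the pair.

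Several large metabolic and transport families held rises and falls in similar number. Of 66 cytochrome P450 genes 19 rose and 17 fell, and the median of 0.05 turned negative under upper quartile factors and total counts. Cyp7a1, which starts bile acid synthesis, was at 251, 177 and 242 CPM and then at 42.8, 30.8 and 31.3 CPM, a log2 fold change of -2.67 ± 0.17. Cyp1b1, a P450 found outside hepatocytes, was at 0.676, 0.784 and 0.886 CPM against 8.43, 5.73 and 8.26 CPM. Of 238 solute carriers 67 rose and 71 fell, close to background, with a median of -0.13, and under DESeq2 size factors the balance of calls turned to 70 rises and 66 falls while the median stayed negative. Slc7a11, the cystine importer, was at 0, 0.121 and 0.104 CPM and then at 9.36, 8.76 and 7.14 CPM. Slc16a3, a lactate exporter of glycolytic cells, was at 0.184, 0 and 0.261 CPM and then at 14.2, 14.5 and 15.2 CPM. The mitochondrial carrier Slc25a47, expressed mainly in liver, was at 584, 574 and 574 CPM and then at 77.5, 86.1 and 76.0 CPM, a log2 fold change of -2.85 ± 0.11 (edgeR adjusted p = 1.09e-10). Other families leaned to a side. Of the 41 mitochondrial carriers 14 fell and 6 rose, while P-type ATPases, which pump ions, rose in 13 and fell in 5 of 26. The vacuolar proton pump rose in 7 and fell in 1 of 19, and aldo-keto reductases rose in 6 and fell in 1 of 13.

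Detoxification families differed. UDP-glucuronosyltransferases rose in 7 (38.9%) and fell in 3 (16.7%) of 18, with a median log2 fold change of 0.09. Glutathione transferases rose in 5 (22.7%) and fell in 6 (27.3%) of 22, with a median of -0.10. Carboxylesterases rose in 6 (42.9%) and fell in 5 (35.7%) of 14, with a median of 0.09. With so few members, no difference from the background of 29.1% and 29.3% is read from these shares. Acyl-CoA synthetases, thioesterases and dehydrogenases rose in 9 and fell in 13 of 34. Within them Acot4, a peroxisomal thioesterase, fell from 15.7, 10.2 and 10.1 CPM to 1.39, 3.30 and 2.48 CPM, and Acot9, a mitochondrial one, rose from 2.77, 1.27 and 1.82 CPM to 10.34, 11.14 and 10.98 CPM. Autophagy genes fell in 18 and rose in 4 of 30, with a median log2 fold change of -0.39. Atg101, of the complex that starts autophagy, was at 16.17, 17.49 and 21 CPM and then at 4.39, 3.36 and 5.07 CPM. F-box genes, cullins and Skp adaptors, which choose proteins for ubiquitin, fell in 22 and rose in 3 of 58.

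Some abundant genes did not pass the test. Cat, the catalase gene, was at 2374, 2374 and 2477 CPM in control libraries and 2177, 2536 and 2264 CPM after D-gal/LPS. Its log2 fold change was -0.05 ± 0.08 (edgeR adjusted p = 0.618), and the groups overlapped. Ces3a was at 1942, 2162 and 2050 CPM and 1914, 2338 and 2077 CPM. Hpd, of tyrosine breakdown, was at 1298, 1261 and 1435 CPM and 1094, 1505 and 1289 CPM. Gstm1, Tmbim6 and Col18a1 had log2 fold changes of -0.04 ± 0.10, 0.03 ± 0.09 and 0.01 ± 0.09. Gstp1 had a log2 fold change of -0.09 ± 0.14, with its 3 injured libraries just below its 3 control libraries. Gm20425 missed the test for another reason, with 36.04, 280.9 and 2599 CPM in control libraries and 2019, 10.8 and 18.8 CPM after D-gal/LPS. The predicted gene overlaps Trf, the transferrin gene, on chromosome 9, and its counts followed no group.

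The share of genes that changed depended on biotype. Protein-coding genes, 12815 of those tested, set the background. Antisense genes fell in 46 and rose in 13 of 133, with a median log2 fold change of -0.58, and their share of all counts went from 0.0563% to 0.0393%. Genes labelled TEC, for transcripts still to be experimentally tested, fell in 35 and rose in 11 of 95, with a median of -0.80. Long intergenic RNAs fell in 58 and rose in 35 of 186, with a median of -0.36, yet their share of counts rose from 0.147% to 0.311%. A single gene held most of that gain. Malat1, a nuclear RNA, was at 171, 180 and 172 CPM in control libraries and 1433, 1864 and 1745 CPM after D-gal/LPS, a log2 rise of 3.27 ± 0.10 (edgeR adjusted p = 1.81e-11). Pseudogenes did not share the lean of the noncoding classes to falls. Among 54 transcribed ones 20 (37.0%) rose and 8 (14.8%) fell, and among 132 others 45 (34.1%) rose and 27 (20.5%) fell. The shares that rose were not far from the background of 29.1%. The share of all counts held by these others went down, from 1.41% to 1.10%. Gm1966, a pseudogene of the Gvin GTPases, was at 0.553, 0.302 and 0.834 CPM and then at 20.5, 19.9 and 20.5 CPM, and reads of such copies may come from their parent genes. Strandedness is not stated, so antisense genes cannot be told apart from the genes they overlap.

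The typical size of a change differed between classes of level. Among 5288 genes at 1 to 10 CPM 1538 rose and 1536 fell, and among 6193 genes at 10 to 100 CPM 1712 rose and 2051 fell. Genes at 100 to 1000 CPM rose more often, in 339 against 219 of 874. Of the 104 genes at 1000 CPM or more 32 rose and 34 fell, but 0 rose and 6 fell by at least 2-fold, and these genes held 54.5 ± 0.70% of counts in control and 53.5 ± 0.36% after D-gal/LPS. Pck1, the first enzyme of glucose synthesis, was among the 6, at 3017, 2318 and 2811 CPM and then at 874, 1580 and 1085 CPM. The median size of the log2 change was 0.84 at 1 to 10 CPM, 0.48 at 10 to 100 CPM, 0.36 at 100 to 1000 CPM and 0.39 above that, and the median standard error was 0.27, 0.13, 0.09 and 0.09. Below 1 CPM 336 of 1124 genes rose and 134 fell, but such genes pass the filter mainly where they are high in 1 group, and no direction is read from them. The coefficient of variation between replicates had a median of 18.1% in control and 16.3% in D-gal/LPS libraries at 1 to 10 CPM, and of 5.67% and 6.89% at 100 to 1000 CPM.

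Genes that span more of the genome rose more often. From the shortest to the longest quintile of tested genes by span, introns included, the share that rose was 24.0%, 26.3%, 27.3%, 30.3% and 37.7%, and the share that fell was 32.4%, 33.7%, 30.5%, 27.1% and 22.6%. The median log2 fold change was -0.17 in the first quintile and 0.19 in the last, while that of the fourth quintile, 0.02, turned negative under upper quartile factors and total counts. Among protein-coding genes alone, split into their own quintiles, the slope was steepest at 1 to 10 CPM, where 42.4% of the longest and 22.5% of the shortest genes rose, and weaker at 10 to 100 CPM, where 33.3% and 24.8% rose. At 100 to 1000 CPM the shares were 42.2% and 37.7%, with no steady order between. Exonic length showed little of this, since 27.6% of the shortest and 31.8% of the longest quintile rose. Protein-coding genes with a single exon block fell in 141 and rose in 79 of 340.

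**Figure D4:**
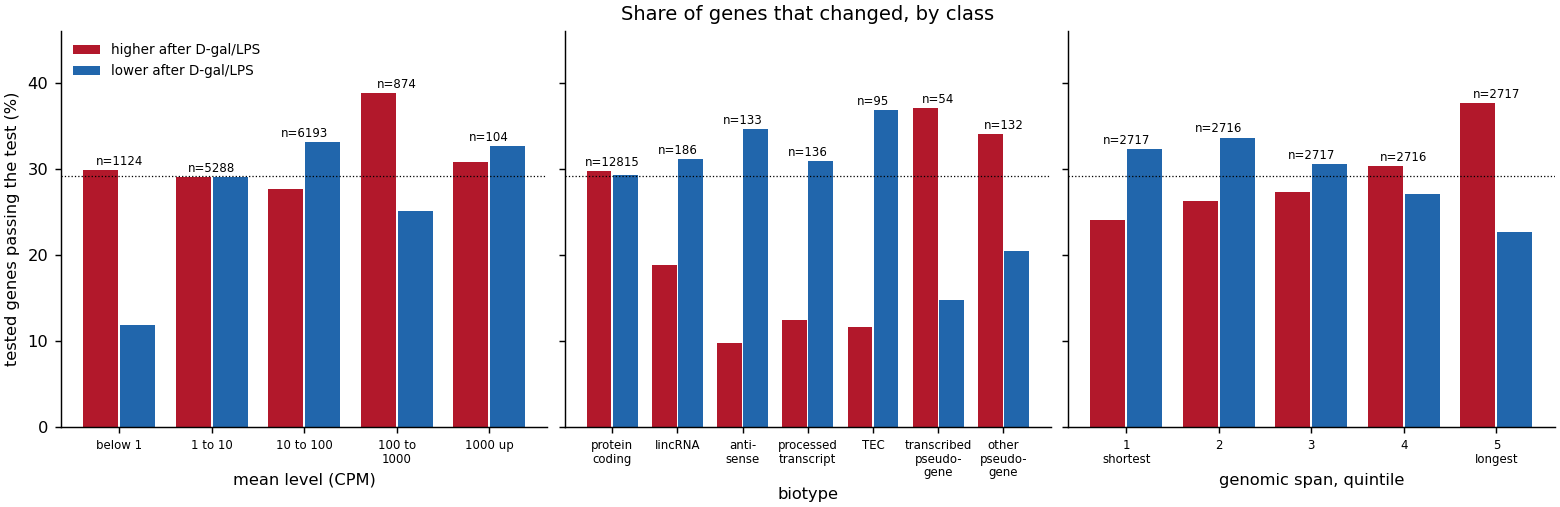
Bars give the share (%) of tested genes that rose (red) or fell (blue) after D-gal/LPS, by mean level of the 6 libraries, by biotype with at least 50 tested genes, and by quintile of genomic span, with the number of tested genes above each pair. The dotted line is the 29.1% of all tested genes that rose. Noncoding classes are lower more often and long genes are higher more often.

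By median log2 fold change, the X chromosome and the mitochondrial genome lay farthest from background. On X 141 (34.6%) of 407 tested genes rose and 66 (16.2%) fell, with a median log2 fold change of 0.19 that stayed positive under every scaling tried. The 13 genes of the mitochondrial genome were described above. Chromosome 4 had 210 rises (24.6%) and 281 falls (33.0%) of 852, and chromosome 1 282 rises (33.8%) and 223 falls (26.7%) of 835. These shares were near the background of 29.1% and 29.3%, and no lean is read from them. Of the 6 tested genes of the Y chromosome 0 passed the edgeR test, and 0 had an unadjusted p under 0.05.

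Some of the genes that changed by at least 2-fold in the same direction lay side by side. There were 60 runs of at least 4 neighbouring tested genes that all rose, with 302 of the 2454 genes at least 2-fold higher. Another 15 runs all fell, with 68 of the 1731 genes at least 2-fold lower. Runs were found from the fold changes themselves and are a description. The longest, chr1:173468509-174031810, held 13 genes, mainly of the Pyhin and Ifi200 family, DNA sensors of the interferon response, with log2 rises of 2.56 to 7.98. Its member Ifi205 was at 0.861, 0.181 and 0.521 CPM and then at 141, 121 and 136 CPM. A run of 10 genes at chr11:82951349-83260534 held the Schlafen cluster and runs of 9 at chr19:11301249-11604849 and chr7:105824223-107548656 held Ms4a genes and, in the main, Gvin GTPases and their copies. Further runs of 7 held Ly6 genes on chromosome 15, Trem receptors on chromosome 17, and Sp100, Sp110 and Sp140 on chromosome 1.

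Falling runs were fewer and shorter. The longest, chr17:21657582-22166190, held 8 genes, 6 of them Zfp genes, with log2 falls of -1.02 to -1.86. The 5 Acot genes at chr12:83987861-84111349, thioesterases of peroxisomes, mitochondria and cytosol, had log2 fold changes of -1.06 to -5.75. At chr6:47953390-48445825 a run of 5 genes, 4 of them Zfp genes, had log2 fold changes of -1.01 to -2.03. Neighbours in such clusters are often copies of each other, so a run is not a count of independent genes.

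**Figure D5:**
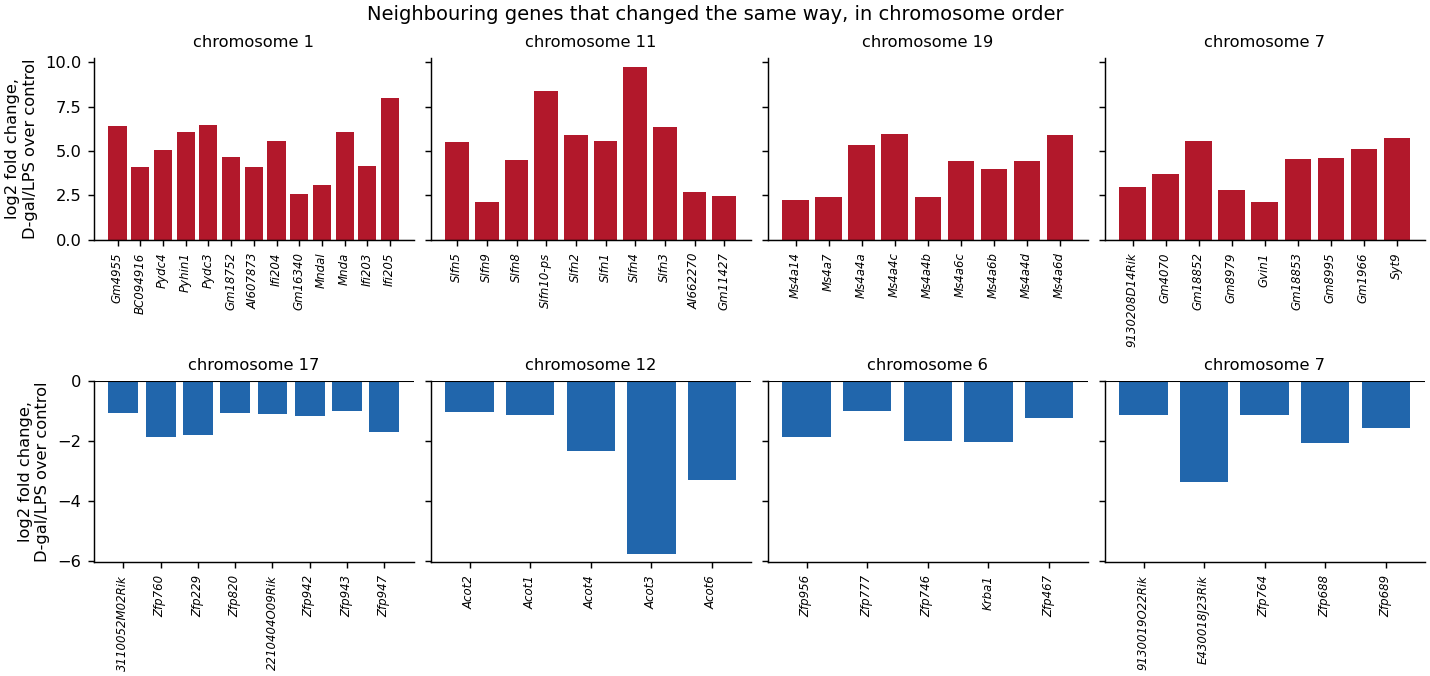
Log2 fold changes (D-gal/LPS over control) of neighbouring tested genes in chromosome order, for the 4 longest runs of rising genes (upper row, red) and 4 of the 5 runs of at least 5 falling genes (lower row, blue). Bars in a run share their sign by construction, and within the Schlafen run sizes differ by several log2 units, between Slfn9 at 2.15 and Slfn4 at 9.75.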

How the data were processed

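Messenger RNA was sequenced from 9 mouse liver libraries in 3 labelled groups of 3. The authors deposited 1 table with a whole-number read count and an FPKM value per gene and library. The deposited counts were used for every main test, and the authors' FPKM values (per gene length and depth) for 1 alternative and for comparing levels between genes. Per the submitters' processing notes, reads were placed on mouse build GRCm38.p4, also called mm10, and the tools named include limma and R 4.1.2. The aligner, counting program, annotation release and strandedness are not stated. Of 21 value columns, 3 matched no labelled sample and were not used here.

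Tests used edgeR 4.0.16 under R 4.3.3: filterByExpr, TMM factors, 1 robust quasi-likelihood fit of all 9 libraries in 3 groups without a block (6 residual degrees of freedom), and Benjamini-Hochberg adjustment over 13583 genes at 0.05. The standard error of a log2 fold change is its size divided by the square root of F. It covers the spread between libraries only. Where a group holds only a few counts it can be too small, and it is left out for Adamts4, Egr2 and Gm43314. For a gene without counts in a group, the fold was bounded with 3 counts over that group. The 6 libraries compared held 15072509 to 18106895 counts, and intervals from counting alone are not given, since reads without molecular identifiers are not independent. Replicates differed by more than sampling noise, and none was counted with another.

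Families were 135 symbol patterns. Biotypes came from the deposited table. Exonic lengths and exon blocks came from GENCODE, matched by gene ID (98.62% found). Level classes used the mean CPM of the 6 libraries with bounds 1, 10, 100 and 1000. Runs were at least 4 neighbouring tested genes changed at least 2-fold in the same direction. Promoters were 300-base RefSeq windows matched by symbol. The families, markers, motifs and the comparison itself were chosen with earlier results of these data known, and wrong family members were removed after their values were seen. Families and classes got no test of their own: counts and medians stand beside those of all tested genes.

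Named genes were taken by rule, and a part is printed. The rule took the 12 largest rises and falls without overlap and with at least 5 CPM in the higher group, leaving out predicted genes. It also took the 10 largest gains and losses of CPM, the 2 strongest members of each family and direction, and the 3 strongest of each biotype, level and chromosome. The others were 8 genes with no control count, 8 abundant genes with an unadjusted p above 0.5, members of runs of at least 5, and cell type markers. Alternatives were other scalings, filters, libraries and tests (DESeq2 1.42.0, voom and limma-trend in limma 3.58.1), a replicate block, a 2-fold limit, and leaving out each of the 6 libraries. The script was tested on simulated counts. GEO's labels number replicates 1 to 3 in each group, and the check of whether they pair is given with the alternatives. Results on some withheld genes are not reported here.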

Additional observations from a re-analysis of the deposited data

How the results depend on the processing

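The 3957 rises and 3974 falls stayed within 1.5 times under every alternative except a limit of at least 2-fold, which left 2454 and 1731. Leaving out 1 of the 6 libraries gave 3679 to 3890 rises and 3511 to 3768 falls. With a replicate block there were 3889 and 3867. The correlations of same-numbered libraries were -0.067, -0.018 and -0.042, so no effect shared by a number was visible and the block is given here only. Whether same-numbered samples were handled together is not labelled, and this check cannot exclude it. DESeq2 size factors gave 4093 and 3805, upper quartile factors 3758 and 4296, total counts 3754 and 4293, and these scalings moved the median of all log2 fold changes by at most 0.056. DESeq2 itself gave 4082 and 3780, voom 4128 and 4190, limma on FPKM 3791 and 4303, no filter 4185 and 3896 of 20005 genes, a filter of 5 CPM 3059 and 3099 of 9939, and only the 6 libraries 3994 and 3810 of 13322. No named gene changed direction while called. The balance of all rises and falls turned under some settings, and the number of families whose median or balance turned is given above. At 1 to 10 CPM, replicate spread limits what a change below 2-fold can show.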

Other observations

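The predicted gene Gm43314 was at 17.0, 15.2 and 18.8 CPM in control libraries and 0.0578, 0.132 and 0.0590 CPM after D-gal/LPS. Its fitted log2 fold change of -7.58 rests on very few counts in the injured libraries. The fall was larger than any among genes with a formal symbol that met the naming rule. Gm26712, a transcribed pseudogene, was at 8.12, 9.59 and 9.43 CPM and then at 0.0578, 0.0659 and 0.0590 CPM, but its adjusted p of 0.0148 did not pass with voom or without any 1 of the D-gal/LPS libraries. Gm11769 had 21, 17 and 17 counts in control libraries and 0 in all D-gal/LPS libraries, at least 17.6-fold lower with 3 counts placed over the injured group. For Gm43314, Gm26712 and Gm11769 the direction was fixed by the filter, which they passed only through the control libraries or the third group. Apob, which carries lipids in lipoproteins, was at 2959, 711 and 2388 CPM in control libraries and 4223, 4328 and 3949 CPM after D-gal/LPS, and control replicate 2 lay far below the others.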
